A study of Caenorhabditis elegans with 2 samples.

Results

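The genes described here encode the DLK-1 and KGB-1 mitogen-activated protein (MAP) kinase cascades of Caenorhabditis elegans, with the proteins that switch each cascade on or off. They are dlk-1, mkk-4, pmk-3, mak-2 and rpm-1 of the DLK-1 arm and svh-2, mlk-1, mek-1, kgb-1 and vhp-1 of the KGB-1 arm, 10 of the 19973 annotated protein-coding genes of the nuclear chromosomes. All 10 were found by symbol in the annotation. The measurement is chromatin immunoprecipitation with sequencing (ChIP-seq) of the transcription factor CEBP-1, and the question put to it here is where CEBP-1 peaks lie at these genes. There was 1 group of 2 biological replicates of strain RW12290, allele st12290[cebp-1::TY1::EGFP::3xFLAG] X, in which CRISPR placed the tag at the endogenous cebp-1 gene. Both were whole young adults of 62 hours, from larvae starved at the L1 stage to synchronise them. After shearing to 200 to 800 bp they were precipitated with an antibody against GFP, as the description says. The antibody field of the labels names cebp-1 instead. No treated, injured, untagged or input sample was analysed here, and whole animals do not tell in which cells a peak arose.

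A summit, the position of greatest signal in a peak, was counted for a gene when it lay between 2 kb upstream of any annotated 5′ end and the end of the gene. The authors deposited 4 thresholded peak lists, each with the longer ranked list it was taken from. The lists of replicate 1 (1488 peaks) and replicate 2 (797 peaks) rest on each replicate alone. The conservative list (1546 peaks) and the optimal list (1969 peaks) belong to the whole series. Every thresholded peak has a global irreproducible discovery rate (IDR) of at most 0.01, which is a −log10 IDR of at least 2. IDR is the expected rate at which peaks of that strength fail to recur between a pair of lists. The signal value of a peak is the authors' own, its scaling is not stated and read depth is unknown, so signals and ranks were compared only within a list. A series value has no error of its own, so each summit described is given with its value in either replicate. Series values are those of the conservative list or the ranked list behind it, unless the optimal list is named.

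DLK-1 is a MAP kinase kinase kinase that drives regrowth of injured axons through the kinase MKK-4, the p38-type kinase PMK-3 and the kinase MAK-2, and one of its outputs is the stability and local translation of the mRNA for CEBP-1. RPM-1 is a ubiquitin ligase that marks DLK-1 for degradation. In the parallel arm the Met-like receptor tyrosine kinase SVH-2 acts through MLK-1 and MEK-1 on KGB-1, a kinase of the JNK type, and the dual-specificity phosphatase VHP-1 turns KGB-1 off. CEBP-1, a basic leucine zipper (bZIP) protein, is thus a product of the first arm, and in injured neurons it is known, with ETS-4, to induce svh-2 of the second.

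Sequence around 5 of the 7 optimal member summits is printed below, to show where the word TTGCGAAA, which 28.6% of all conservative CEBP-1 peaks held, stands in them. Each window reaches 100 bp to either side of the summit and is 201 bp of the plus strand of ce11 (WBcel235), read from the RefSeq genome 5′ to 3′. Capitals mark TTGCGAAA. The windows upstream of vhp-1 and svh-2 each held it, and the windows inside vhp-1 and upstream of mak-2 did not. The 2 summits at dlk-1, both in introns and both with the word, are described with that gene.
vhp-1 summit 1 (chrII:5321709-5321909, plus strand): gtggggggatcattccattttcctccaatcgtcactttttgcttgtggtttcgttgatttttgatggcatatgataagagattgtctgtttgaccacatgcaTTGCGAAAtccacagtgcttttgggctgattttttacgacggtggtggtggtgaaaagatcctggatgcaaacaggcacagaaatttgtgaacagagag
svh-2 summit 1 (chrX:6552875-6553075, plus strand): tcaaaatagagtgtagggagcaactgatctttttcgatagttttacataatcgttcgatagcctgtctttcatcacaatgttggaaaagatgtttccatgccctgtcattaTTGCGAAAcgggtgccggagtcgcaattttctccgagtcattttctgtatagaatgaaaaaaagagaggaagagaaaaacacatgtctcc
vhp-1 summit 2 (chrII:5330402-5330602, plus strand): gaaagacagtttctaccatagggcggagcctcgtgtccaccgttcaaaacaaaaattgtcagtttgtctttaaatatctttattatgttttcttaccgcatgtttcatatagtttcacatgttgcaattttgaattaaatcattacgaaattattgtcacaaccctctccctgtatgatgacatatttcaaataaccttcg
vhp-1 summit 3 (chrII:5338362-5338562, plus strand): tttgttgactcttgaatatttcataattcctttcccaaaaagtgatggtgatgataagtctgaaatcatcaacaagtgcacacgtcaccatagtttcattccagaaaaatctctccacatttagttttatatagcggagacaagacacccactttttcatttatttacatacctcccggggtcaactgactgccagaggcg
mak-2 summit 1 (chrIV:884790-884990, plus strand): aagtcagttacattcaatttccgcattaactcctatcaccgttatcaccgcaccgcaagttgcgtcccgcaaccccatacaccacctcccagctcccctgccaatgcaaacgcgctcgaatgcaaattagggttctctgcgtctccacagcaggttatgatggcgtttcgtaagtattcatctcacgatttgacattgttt

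Of the 10 genes, 3 held at least 1 summit of the conservative list (vhp-1, dlk-1 and svh-2), where 7.62% of all protein-coding genes did. In the optimal list it was 4 genes, with mak-2 added, against 9.49% of all genes. Replicate 1 gave the same 4 genes, against 8.02%, and replicate 2 gave vhp-1 and dlk-1, against 4.48%. Those 2 genes were in each of the 4 thresholded lists, as were 3.88% of all genes. The other 6 genes had no summit in any thresholded list. By arm, the conservative list gave 1 of 5 DLK-1 genes and 2 of 5 KGB-1 genes, against 7.62% of all genes. The optimal list gave 2 of 5 in each, against 9.49%. By role, the phosphatase, the first kinase of the DLK-1 arm, the receptor and, in the optimal list, the last kinase MAK-2 held summits. None of the 4 MAP kinase kinases and MAP kinases (mkk-4, pmk-3, mek-1 and kgb-1) did, in any of the 4 lists. With 4.48% to 9.49% of all genes in these lists, none of 4 does not stand apart from all genes. The splits by arm and by role were not tested. The members' windows were long, with a median of 7.93 kb (3.758 to 19.55 kb) against 4.027 kb for all genes, and a longer window has more room for a summit. Per 10 kb of window there were 0.522 conservative summits at the members and 0.176 at all genes. Of the members' 5, 3 were at vhp-1, and the other 9 genes had 2 summits, 0.263 per 10 kb. The conservative summits numbered 5 and the optimal 7, with 6 in replicate 1 and 4 in replicate 2.

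**Figure D1:**
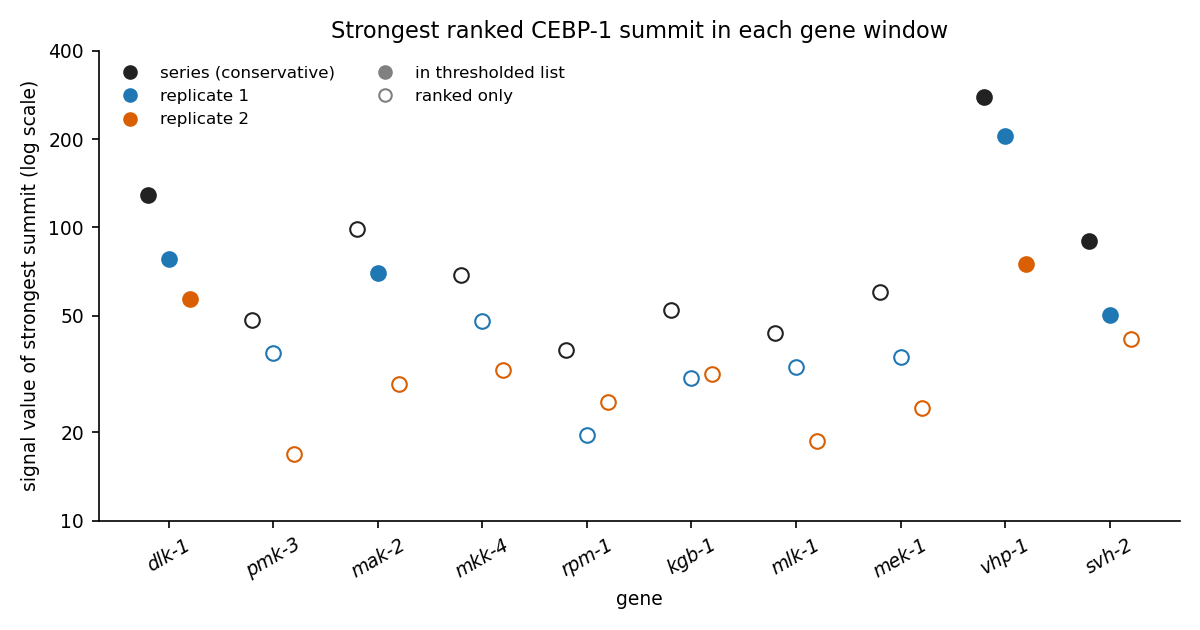
Signal value (log scale) of the strongest ranked summit in each gene's window, in the series list behind the conservative one and in each replicate's own ranked list; filled points are in the thresholded list and open points are ranked only. The 3 points of vhp-1 and of dlk-1 are filled, and those of pmk-3, mkk-4, rpm-1, kgb-1, mlk-1 and mek-1 are all open.

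The plot of strongest summits gives the level of each gene beside its standing in the lists. In the series list the order was vhp-1 (277.4), dlk-1 (128.8), mak-2 (98.48), svh-2 (89.76), mkk-4 (68.64), mek-1 (60.11), kgb-1 (52.24), pmk-3 (48.43), mlk-1 (43.63) and rpm-1 (38.18). Signal and IDR did not give the same order, since mak-2 stood above svh-2 in signal and was not in the conservative list. The order of neighbours also changed with the replicate. Replicate 1 had vhp-1, dlk-1, mak-2, svh-2 and mkk-4 as its first 5, and replicate 2 had vhp-1, dlk-1, svh-2, mkk-4 and kgb-1. In the optimal ranked list rpm-1 had 46.85, above the 43.63 of mlk-1 in the same list, so that mlk-1 was last there. Each list's strongest summit was taken, and at mkk-4, kgb-1 and rpm-1 it did not lie at the same place in every list. With 2 replicates no spread was estimated for these orders.

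The gene vhp-1 (WBGene00006923, II 5323276 to 5340829, plus strand) had 3 summits in each of the 4 thresholded lists. Of all protein-coding genes, 0.235% had 3 or more conservative summits, a total of 47 genes. At 19.55 kb its window was the longest of the 10. Its strongest conservative summit placed it 232nd of the 1522 genes with a summit in that list, with dlk-1 762nd and svh-2 1281st. The annotation gives 8 transcripts with 6 separate 5′ ends spread over 15497 bp, and the summits lay apart along them.

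The strongest was intergenic, 1467 bp upstream of the outermost 5′ end (peak II 5321735 to 5321919, summit 5321809). Its signal was 277.4 in the conservative list, where it ranked 179 of 1546, with 204.3 in replicate 1 (rank 127 of 1488) and 75.26 in replicate 2 (rank 385 of 797). The replicates' summits were 5 bp apart. The word TTGCGAAA lay at II 5321811 to 5321818, its centre 5.5 bp from the series summit.

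The second lay in the first intron of the longest transcript, 984 bp upstream of the next 5′ end and inside the antisense RNA gene anr-54 (peak II 5330350 to 5330653). It had a signal of 160.2 in the conservative list, with 80.76 in replicate 1 and 74.41 in replicate 2. The third lay in an intron of 7 transcripts, 234 bp downstream of a 5′ end and 311 bp upstream of the last (peak II 5338310 to 5338613). It had 146.5 in the conservative list, with 81.38 in replicate 1 and 62.85 in replicate 2. The replicates' summits were 9 bp apart at the second and 18 bp apart at the third, and neither window held TTGCGAAA.

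The upstream summit was first of the 3 in every list, but its lead differed between the replicates. Within replicate 1 it was 2.51 times the next strongest and within replicate 2 it was 1.01 times, with 1.73 times in the conservative list. All 3 passed the threshold in each replicate, with −log10 IDR between 3.86 and 5.0 in replicate 1 and between 3.04 and 3.41 in replicate 2. The strongest summit of vhp-1 outside the thresholded lists had a signal of 68.56 in the series, with 49.83 in replicate 1 and 22.42 in replicate 2, and lay 671 bp downstream of the outermost 5′ end.

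**Figure D2:**
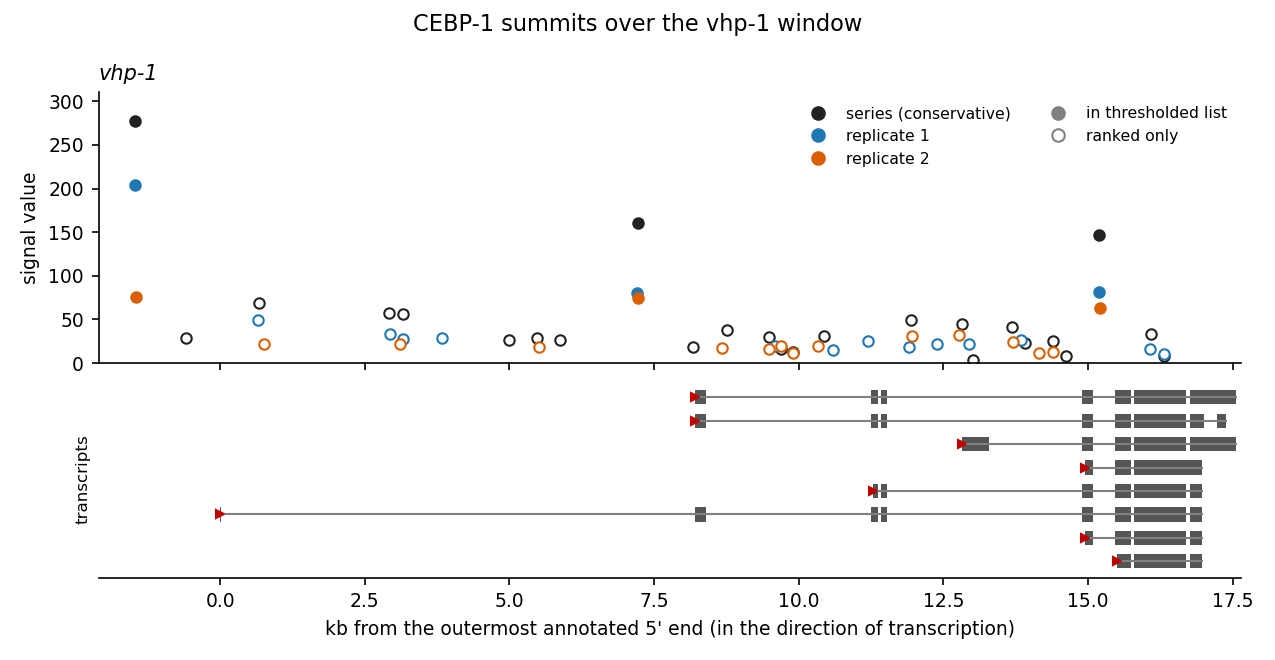
Every ranked summit in the vhp-1 window by its distance from the outermost annotated 5′ end (kb, in the direction of transcription) and its signal value, above the 8 transcripts (boxes are exons, red arrowheads 5′ ends). Filled points, which are in a thresholded list, stand at 3 places only, upstream of the gene, before the 5′ end at 8210 bp and between the 5′ ends at 14952 and 15497 bp.

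The map of vhp-1 also carries the weaker summits. The ranked list behind the conservative one held 25 summits in this window and each replicate's ranked list 16. The 22 that were not conservative had signals from 3.433 to 68.56, all below the 146.5 of the third summit.

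The receptor gene svh-2 (WBGene00020504, X 6553287 to 6564207, plus strand) had 1 conservative summit, in intergenic sequence 312 bp upstream of its outermost 5′ end (peak X 6552823 to 6553126, summit 6552975). Its signal was 89.76 in the conservative list (rank 1160 of 1546), with 50.12 in replicate 1 and 41.71 in replicate 2. The summits of the replicates were 23 bp apart. It was in the thresholded list of replicate 1 (rank 1299 of 1488, −log10 IDR 2.22) and not in that of replicate 2, where its −log10 IDR was 0.782 and it ranked 1466 of 39805 ranked peaks. TTGCGAAA lay at X 6552986 to 6552993, 14.5 bp from the summit, and no other protein-coding window shared the summit. With a series −log10 IDR of 2.56, svh-2 is lost at a stricter IDR of 0.001, and it is lost when replicate 2 is read by itself.

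The gene dlk-1 (WBGene00001008, I 12565800 to 12572801, minus strand) had 1 conservative summit, in an intron of 3 of its 5 transcripts (peak I 12571729 to 12572032, summit 12571881). The nearest 5′ end was 915 bp away on the upstream side. The summit was also 1017 bp upstream of an internal 5′ end, so it lay outside any promoter drawn as 1000 bp upstream to 200 bp downstream. Its signal was 128.8 in the conservative list (rank 638 of 1546), with 77.72 in replicate 1 (rank 652 of 1488) and 56.93 in replicate 2 (rank 615 of 797). Both replicates passed the threshold, with summits 12 bp apart. TTGCGAAA lay on the minus strand 50.5 bp from the summit, at I 12571827 to 12571834.

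A second dlk-1 summit was in the optimal list alone (peak I 12566256 to 12566559), in an intron of 4 transcripts and 846 bp downstream of the last 5′ end. Its signal was 72.3 in the optimal list (rank 1722 of 1969), with 41.14 in replicate 1 and 31.57 in replicate 2. Neither replicate passed on its own, with −log10 IDR of 1.23 in replicate 1 and 0.867 in replicate 2, and their summits were 144 bp apart. TTGCGAAA lay 3.5 bp from the series summit. A further place, 469 bp upstream of an internal 5′ end, fell short of the series lists with a signal of 75.08 and a −log10 IDR of 1.52. It had 28.89 in replicate 1 (rank 5190 of 33933 ranked peaks) and 44.46 in replicate 2 (rank 1260 of 39805).

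The gene mak-2 (WBGene00007007, IV 885344 to 890200, plus strand), the kinase at the end of the DLK-1 arm, had 1 summit, which was in the list of replicate 1 and not in that of replicate 2. This summit was intergenic, 454 bp upstream of the outermost 5′ end (peak IV 884738 to 885041, summit 884890). The series signal was 98.48, with 69.91 in replicate 1 (rank 770 of 1488, −log10 IDR 3.38) and 29.17 in replicate 2 (rank 5772 of 39805 ranked peaks, −log10 IDR 0.248). The replicates' summits were 69 bp apart. The peak was in the optimal list (rank 1038 of 1969) and in that of replicate 1. In the conservative comparison its −log10 IDR was 1.49, although 98.48 stood above the 89.76 of the conservative svh-2 peak. None of the motifs searched was in its window. The nearest conservative summit lay 16.28 kb outside the gene's window.

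**Figure D3:**
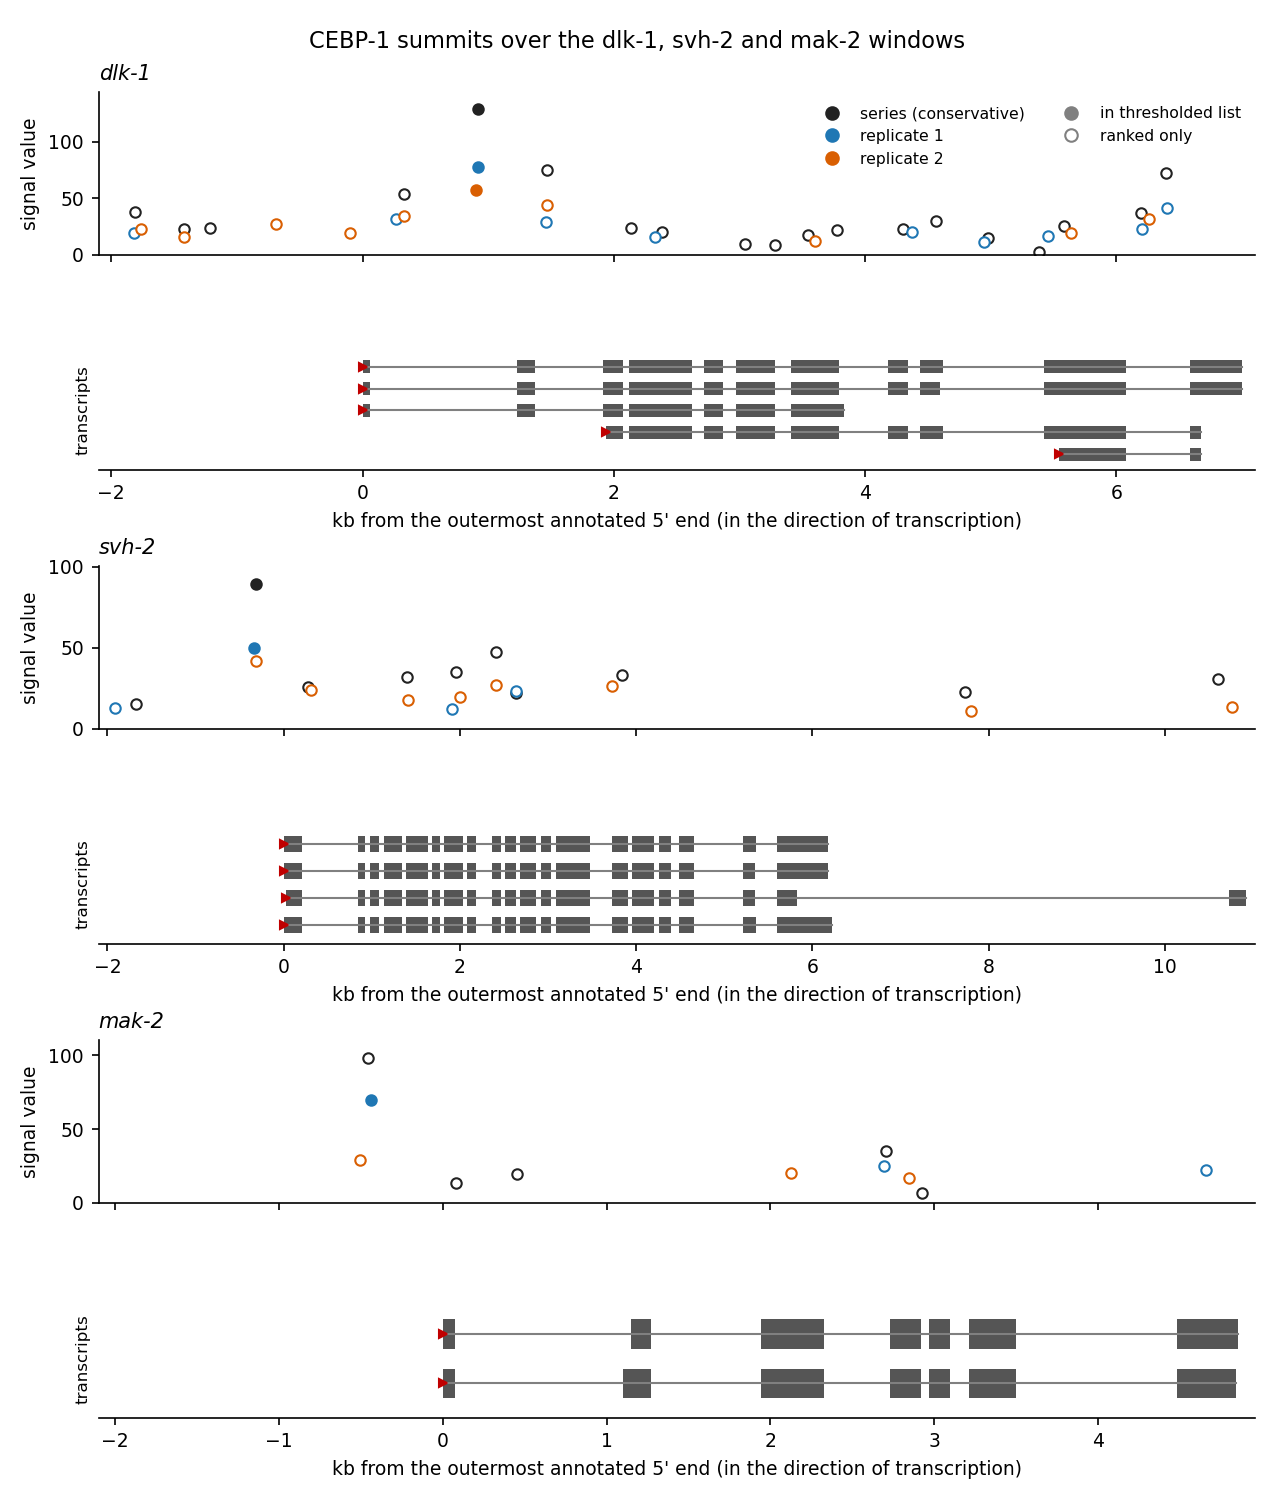
Ranked summits over the dlk-1, svh-2 and mak-2 windows by distance from the outermost annotated 5′ end (kb, in the direction of transcription) and signal value, above the annotated transcripts (boxes are exons, red arrowheads 5′ ends); filled points are in the thresholded list named by their colour. The leading point of dlk-1 is filled in the series and in both replicates, that of svh-2 in the series and replicate 1, and that of mak-2 in replicate 1 alone.

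The maps of dlk-1, svh-2 and mak-2 show 1 leading summit a gene, inside the first intron at dlk-1 and upstream of the first exon at the other 2. The optimal list is not drawn in them.

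The remaining 6 genes had only ranked summits below the threshold. At mkk-4 (WBGene00003368, X 10027856 to 10030130), the MAP kinase kinase of the DLK-1 arm, the strongest lay 1312 bp upstream with a series signal of 68.64. Replicate 1 had 48.01 there, with a −log10 IDR of 1.92 that fell just short of the threshold. Replicate 2 had 19.22 in an overlapping peak, with its summit 96 bp from that of the series. The strongest of replicate 2 lay elsewhere, 2001 bp downstream, with 32.72. At pmk-3 (WBGene00004057, IV 8139219 to 8143154), the p38-type kinase, the strongest lay in an intron 66 bp upstream of an internal 5′ end. It had 48.43 in the series and 37.4 in replicate 1. The overlapping peak of replicate 2 had 16.82 (rank 27443 of 39805 ranked peaks), with its summit 104 bp away and 38 bp downstream of that 5′ end. At rpm-1 (WBGene00004457, V 8805399 to 8819955), the ubiquitin ligase, it lay in an exon 7267 bp from the 5′ end with 38.18 in the ranked list behind the conservative one. The optimal ranked list had its strongest at another place, 12750 bp from the 5′ end, with 46.85. Replicate 2 had 23.64 close by, at 12764 bp, and the closest ranked summit of replicate 1 in the gene lay at 11377 bp. At the first place replicate 1 had 17.72 and replicate 2 had 25.47. The strongest of replicate 1 in the gene was 19.53. At these 3 genes of the DLK-1 arm the nearest conservative summits lay 67.07, 83.18 and 114.4 kb outside the windows of mkk-4, pmk-3 and rpm-1, in that order.

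In the KGB-1 arm the strongest ranked summit of mek-1 (WBGene00003185, X 7479248 to 7481005), the MAP kinase kinase, lay 1168 bp upstream with 60.11 in the series, 36.06 in replicate 1 and 24.3 in replicate 2. That of kgb-1 (WBGene00002187, IV 405621 to 410035), the JNK-type kinase, lay 568 bp upstream with 52.24, 30.65 in replicate 1 and 26.33 in replicate 2. Replicate 2 had 31.71 at another place in kgb-1, 1030 bp downstream of a 5′ end. The upstream kgb-1 summit was also in the window of the neighbouring gene T07A9.12. That of mlk-1 (WBGene00003374, V 5056378 to 5064811), the MAP kinase kinase kinase, lay 479 bp upstream with 43.63, 33.39 in replicate 1 and 18.72 in replicate 2. At all 3 the series −log10 IDR was under 1, at 0.768 for mek-1, 0.953 for kgb-1 and 0.198 for mlk-1. Nearest conservative summits lay 20.15 kb outside the window of mek-1, 15.14 kb outside that of kgb-1 and 6.675 kb outside that of mlk-1. A peak below the threshold is not shown to be absent.

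Ranked summits were counted as well, although each of the 10 genes had at least 1 in the series and so did 77.7% of all genes. The members held 81 of the 50793 summits in the ranked list behind the conservative one. Per kb of window their median was 0.676, against 0.491 for all genes (quartiles 0.194 and 0.828). In the ranked list of replicate 1 the medians were 0.485 for the members and 0.317 for all genes, and in that of replicate 2 they were 0.468 and 0.383. The lists differ in length, so densities were ordered only within a list. The window of dlk-1 was the densest of the 10 in the series and in each replicate. It held 19 ranked summits in the series list, 2.11 per kb, a density that 0.35% of all genes had or exceeded, with 1.11 per kb in each replicate. The window of vhp-1 held 25, or 1.28 per kb (6.95% of genes at or above), with 0.818 per kb in each replicate. The standing of mek-1 depended on the list. It was second in the series with 6 summits and 1.6 per kb (2.57% of genes at or above) and stood below vhp-1 in both replicates. It had 2 summits and 0.532 per kb in replicate 1 and 3 summits and 0.798 per kb in replicate 2. In replicate 1 mek-1 also stood below kgb-1 (0.624 per kb) and mlk-1 (0.575 per kb). The standing of pmk-3 depended on the list too. It held 1 summit in the series list (0.168 per kb, with 76.1% of genes at or above), 5 in the optimal ranked list (0.842 per kb), 2 in replicate 1 (0.337 per kb) and 1 in replicate 2 (0.168 per kb). The gene rpm-1 held 3 summits, or 0.181 per kb, in the series list (75.6% of genes at or above) and in each replicate, and 5 in the optimal ranked list (0.302 per kb). In both replicates the densest windows were those of dlk-1 and vhp-1, the genes found in all thresholded lists. The thresholded summits are among the ranked ones counted, so the 2 measures are not independent. In replicate 2 mek-1, with no thresholded summit, was close behind vhp-1 (0.798 against 0.818 per kb).

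**Figure D4:**
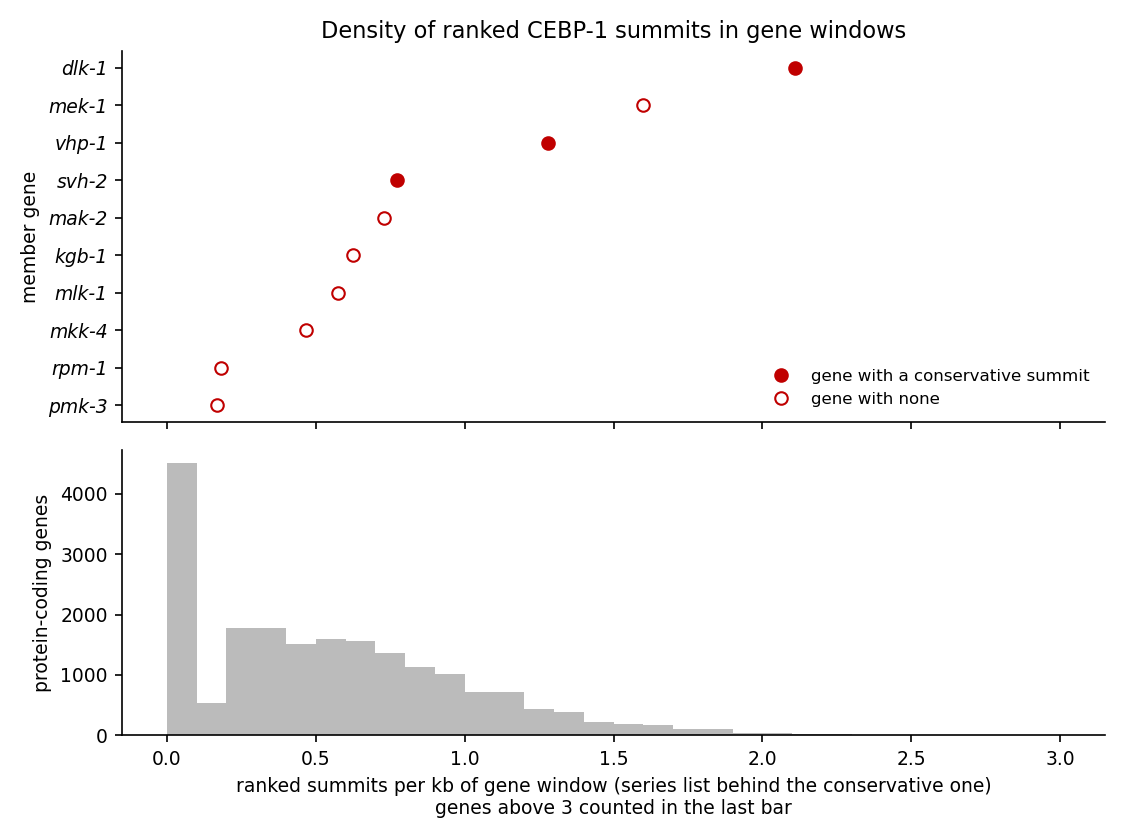
Ranked summits per kb of gene window in the series list behind the conservative one, for the 10 members (upper panel, filled where the gene has a conservative summit) and for 19973 protein-coding genes as a histogram (lower panel). The genes dlk-1 at 2.11, mek-1 at 1.6 and vhp-1 at 1.28 lie to the right of the bulk of all genes, and rpm-1 and pmk-3 lie under 0.2.

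The plot of summit density sets each member on the scale of all genes. Among the members the 3 with a conservative summit were 1st, 3rd and 4th by density in this list, which counts those summits too.

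Words in the windows of 100 bp to either side of the summits were counted on both strands. TTGCGAAA was found as the leading word of all conservative peaks in earlier work on these same lists, the members' peaks included, so its presence here is a description. It was in 3 of the 5 conservative member summits (vhp-1 upstream, svh-2 and dlk-1) and in 4 of the 7 optimal ones, against 28.6% of all conservative and 26.0% of all optimal peaks. It was in 1.88% of 48472 ranked peaks that overlapped no thresholded peak and in 2.4% of promoter windows of the same length, those ending at the outermost 5′ end of each gene. Each of the 3 conservative genes had 1 such summit. The looser core TTGCNNAA, which contains it, matched at the same places only, against 39.7% of all conservative peaks. The variants TTGCGTAA, TTACGTAA, TTGCGCAA and TTGCATCA were in none of the 7 windows, and no more than 1.81% of all conservative peaks held any one of them. TTACGCAA is the reverse complement of TTGCGTAA and gave the same matches. The word TGANTCA, a loose pattern that includes the AP-1 site of Fos and Jun family bZIP proteins, was in both dlk-1 windows and in no other. That was 1 of the 5 conservative and 2 of the 7 optimal summits, against 8.73% of all conservative and 8.58% of all optimal peaks. The same word was in 5.62% of ranked peaks that overlapped no thresholded peak and in 7.11% of promoter windows. In the first dlk-1 window its N was C on the plus strand, and its centre lay 12 bp from the summit. In the second window its N was A, and its centre lay 46 bp from the summit.

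Read the other way, the 10 windows held 11 occurrences of TTGCGAAA, 1.15 per 10 kb against 0.787 for the nuclear genome. A conservative summit lay within 100 bp of 3 of the 11 (27.3%), against 6.2% of the 7892 genomic occurrences. An optimal summit lay near 4 of the 11 (36.4%) at the members and 7.16% in the genome. A ranked summit lay near 8 of the 11 (72.7%) at the members and 19.9% in the genome. The word came from these same peaks, and the genome includes sequence outside gene windows, so these shares are a description and were not tested. The occurrences were 3 at svh-2, 2 each at dlk-1 and vhp-1, and 1 each at pmk-3, mkk-4, mlk-1 and mek-1. The words at mkk-4 and mlk-1 had no ranked summit within 100 bp. Those at pmk-3 and mek-1 had a ranked one that did not pass the threshold, and mak-2, rpm-1 and kgb-1 held no such word in their windows. The GC content of the member windows ran from 32.3% at the second dlk-1 summit to 50.7% at the first, and the median of all conservative windows was 42.3% (quartiles 36.8 and 47.8%) against 32.8% for promoter windows.

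Genes that act beside these kinases were read from lists taken from textbook knowledge, but chosen with earlier results of these data known. Their shares are therefore a description. They were not adjusted for window length, and a longer window has more room for a summit. Of 14 genes matched around the DLK-1 arm, 3 held a conservative summit (21.4%, against 7.62% of all genes). The optimal list gave 3 (against 9.49%), replicate 1 gave 2 (against 8.02%) and replicate 2 gave 1 (against 4.48%). They were cebp-1 itself, rae-1, whose product binds RPM-1, and ppm-2, a phosphatase that works with RPM-1 against DLK-1. The cebp-1 peak (654 bp upstream) had 1267 in the series, with 728.7 in replicate 1 and 522.6 in replicate 2, and passed in both. The rae-1 peak had 90.09, with 51.68 in replicate 1 and 37.25 in replicate 2, and passed in neither replicate alone. The strongest ppm-2 peak had 88.54, with 36.18 in replicate 1, where it passed, and 44.84 in replicate 2, where it did not. The ppm-2 peak was also in the window of T23F11.6. The tagged gene, the output of the DLK-1 arm, thus had a far higher peak in the conservative list than the 128.8 of dlk-1.

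Of 21 genes around the KGB-1 arm, 6 held a conservative summit (28.6%, against 7.62% of all genes). It was 8 in the optimal list (against 9.49%), 5 in replicate 1 (against 8.02%) and 3 in replicate 2 (against 4.48%). These shares too were not adjusted for window length. In the conservative list the AP-1 genes were the strongest of the 6. The gene jun-1 had 392.5 (990 bp upstream), with 205.8 in replicate 1 and 185 in replicate 2, and was first of the 6 in both. The gene fos-1 had 143.1 (1377 bp downstream of a 5′ end), with 102.7 in replicate 1 and 42.56 in replicate 2, where it did not pass and stood below max-2 and egl-30. The kinase gene max-2, which acts on MLK-1, had 123.9, with 62.54 in replicate 1 and 62.81 in replicate 2. The Gq alpha gene egl-30 had 108.2, with 45.43 in replicate 1, where it did not pass, and 58.52 in replicate 2, where it did. The adaptor gene ced-2 had 92.54, with 55.97 in replicate 1 and 40.68 in replicate 2, and the small GTPase gene rho-1 had 78.41, with 43.87 in replicate 1 and 35.03 in replicate 2. Both passed in replicate 1 alone. The egl-30 and ced-2 peaks were shared with the windows of C53H9.4 and npp-8. The ligand gene svh-1 and the MAP kinase gene jnk-1 were among the 15 that held none.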

How the data were processed

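ChIP-seq of CEBP-1 was read in 2 biological replicates. The authors aligned to ce11 and deposited peak lists, per the notes that came with the deposited files. The peak caller is not given in the sources used here. The deposited signal value of each peak has no stated scaling, and the authors' −log10 of the global IDR came from the ranked list behind each thresholded list. In each ranked file, 8 columns on the compared lists were not used. Depth is unknown, so no interval could be given.

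Summits (peak start plus offset) were assigned to gene windows from Ensembl release 115 on WBcel235, the same build as ce11, with Python 3.11.15, numpy 2.4.6, pandas 2.3.3 and matplotlib 3.10.9. Each replicate's value at a series peak was read from its ranked list, at the peak that overlaps. All members were named, and beside them the genes of the lists with a conservative summit. The pathway list held 15 DLK-1 neighbours, of which ppm-1 was not matched, 21 KGB-1 neighbours and 19 other MAP kinase cascade genes, with 3 genes in both of the last 2 lists. The members, lists and motifs were chosen with earlier results of these data known. Because of that, and with 1 group, no test was run, and counts stand beside the same share over all genes. The procedures were tested on simulated data. Alternatives covered the optimal list, each replicate alone, a global IDR of at most 0.001, other gene windows and other motif windows.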

Additional observations from a re-analysis of the deposited data

How the results depend on the processing

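The 3 members with a conservative summit became 4 in the optimal list and without replicate 2, where mak-2 was added. They became 2 without replicate 1 and at a global IDR of at most 0.001, where svh-2 was lost, and 2 in promoters of 1000 bp upstream to 200 bp downstream, where dlk-1 was lost. The share of all genes was 7.62% in the conservative list, 9.49% in the optimal list, 8.02% without replicate 2, 4.48% without replicate 1, 4.64% at that stricter IDR and 5.06% in promoters. The 5 conservative member summits became 3 in those promoters, since the upstream vhp-1 summit lies farther out than 1000 bp and the dlk-1 summit lies in an intron. They numbered 6 without replicate 2 and 4 without replicate 1. The gene vhp-1 had 3 summits in every list and 2 with promoters only or with 500 bp upstream. The genes pmk-3, mkk-4, rpm-1, kgb-1, mlk-1 and mek-1 had 0 under all settings run. Of the conservative summits, TTGCGAAA was within 100 bp of 3, and 2 to 4 under the alternatives run. No paired analysis was possible because there was 1 group. With 2 replicates, no depth, no untagged control and signal of unstated scaling, a member outside the lists is not shown to be free of CEBP-1.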

Other observations

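Genes of other MAP kinase cascades were read with the same windows. Of 19, 2 held a conservative summit (10.5%, against 7.62% of all genes), with 3 in the optimal list (9.49%), 3 in replicate 1 (8.02%) and 1 in replicate 2 (4.48%), all-gene shares in brackets. The kinase gene zak-1 had a signal of 105.5, with 58.53 in replicate 1 and 45.58 in replicate 2, and its summit lay 667 bp upstream of a 5′ end. The adaptor gene tir-1, which acts upstream of the p38 kinase PMK-1, held 3 conservative summits, the strongest with 92.35, and 69.09 in replicate 1 and 41.36 in replicate 2. The zak-1 peak and the strongest tir-1 peak passed in replicate 1 and not in replicate 2.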
